A study of Mus musculus with 20 samples.

Results

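The genes described here make, sense, move and remove sterols, or make long-chain fatty acids, and they were measured in mouse BNST, the bed nucleus of the stria terminalis, which relays between amygdala, hypothalamus and brain stem. They were chosen by name from textbook pathways, but with earlier results of these data known, so the list is not independent of them. All 32 listed symbols were found among the 19214 genes counted in each library. By role they comprise 7 genes of the mevalonate steps, 11 of the steps from farnesyl diphosphate to cholesterol, 5 that control sterol regulatory element-binding proteins (SREBPs), 5 of sterol transport and removal, and 4 of fatty acid synthesis. The 20 libraries, made from polyadenylated RNA, fall into 4 groups of 5: control females, control males, females labelled susceptible and males labelled susceptible. The susceptible mice had gone through chronic restraint stress (CRS), repeated confinement that is used as a model of anxiety. The sources used here do not give strain, age, the length of the stress or the criterion for susceptibility. Nothing states that each library is a different animal, so p-values measure only how far these libraries spread, and that spread may be technical.

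Cholesterol hardly crosses the blood-brain barrier and is made within the brain, largely by glia: oligodendrocytes for myelin, and astrocytes for supply to neurons. Acetyl-CoA is built through mevalonate into isoprenoids, squalene and lanosterol, and a branched series of enzymes then turns lanosterol into cholesterol. When membrane sterol is low, SCAP carries SREBP to the Golgi for cleavage and the freed factor switches on synthesis genes; when sterol is high, the INSIG proteins hold SCAP back. Surplus sterol leaves through ABCA1 and ABCG1, or, in neurons, after 24-hydroxylation by the Cyp46a1 product. Ch25h encodes the enzyme that makes 25-hydroxycholesterol, an oxysterol best known from macrophages, which blocks SREBP processing.

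Promoters were looked up for the 3 genes that the results turn on most. Hmgcs1 and Msmo1 are synthesis genes with lower estimates in control males, and Ch25h is the member whose counts were higher in every male library. RefSeq windows on GRCm38.p6, from 250 bases before to 50 after an annotated start, were found for 25 of the 32 members, and the 250 bases before the start are shown 5′ to 3′. Capitals mark the sterol response element core TCACCCCAC and the CCAAT box, which NF-Y binds beside SREBP, each on either strand (GTGGGGTGA and ATTGG when reversed).
Hmgcs1, chr13:119690101-119690350, plus strand: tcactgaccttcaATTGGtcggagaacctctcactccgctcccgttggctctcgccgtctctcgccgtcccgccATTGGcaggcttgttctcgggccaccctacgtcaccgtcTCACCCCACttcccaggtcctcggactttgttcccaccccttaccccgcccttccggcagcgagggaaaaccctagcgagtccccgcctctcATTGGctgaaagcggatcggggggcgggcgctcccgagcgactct
Msmo1, chr8:64733579-64733828, minus strand: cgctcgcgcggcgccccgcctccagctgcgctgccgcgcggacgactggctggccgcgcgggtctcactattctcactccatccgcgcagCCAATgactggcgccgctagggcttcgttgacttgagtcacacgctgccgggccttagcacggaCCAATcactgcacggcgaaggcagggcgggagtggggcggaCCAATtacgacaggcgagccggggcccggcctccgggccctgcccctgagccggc
Ch25h, chr19:34475149-34475398, minus strand: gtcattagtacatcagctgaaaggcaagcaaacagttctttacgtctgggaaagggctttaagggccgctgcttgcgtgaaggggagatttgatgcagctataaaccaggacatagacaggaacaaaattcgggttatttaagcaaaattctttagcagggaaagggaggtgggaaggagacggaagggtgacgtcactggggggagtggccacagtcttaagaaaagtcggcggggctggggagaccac
The Hmgcs1 stretch held 1 sterol core and 3 CCAAT boxes, the Msmo1 stretch held 3 CCAAT boxes, and in the Ch25h stretch these letters were not found. Over whole windows, 20 of the 25 members (80%) held a CCAAT box against 37.4% of 32851 windows and 41.1% of 27025 genes. The exact sterol core was found in 1 of the 25 members, in 0.551% of windows and in 0.614% of genes. Another motif, the palindromic E-box CACGTG, was found in 6 of the 25 members (24%), in 7.15% of windows and in 8.09% of genes. Matches of different motifs did not overlap in the members' windows, but in that of Fasn a CCAAT match on one strand shares bases with one on the other; a match is a description of letters, not a site in use.

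Total counts were 14637636 to 17862840 per library. The 4 Y-linked genes checked (Uty, Kdm5d, Eif2s3y and Ddx3y) summed to at most 2 counts in a female library and at least 2849 in a male one. All 16 markers of subpallial GABA neurons that the BNST should hold were present, at a summed 1607 to 2838 CPM in control females and 2366 to 3398 in the other groups. Single markers of this list went either way in control female 1. Lhx8 stood at 1.13 CPM there against 4.91 to 33.5 in the other libraries. Zfhx3 stood at 79.6 CPM there, near the top of its range of 31.7 to 82.1. Markers of neighbouring tissue were found as well. Ttr, the choroid plexus transthyretin gene, exceeded 100 CPM (counts scaled to library size) in 7 libraries, and Pmch, a lateral hypothalamic peptide gene, exceeded 1 CPM in 5, of which 3 were control females. Control male 5, with 1672 CPM of Ttr, was the highest of the 20 libraries for 4 members and the lowest for 8. Control female 1, with 118 CPM of Pmch, was the highest for 10 members.

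Among the 32 genes, fatty acid desaturation stood highest in level. Levels between genes are compared as CPM per kilobase of exon over all 20 libraries (mean ± SD, n = 20). Exon length is that of all annotated exons of a gene merged, such as 10.8 kilobases for Lss, so the order depends on the annotation. Scd2, the stearoyl-CoA desaturase of brain, stood at 404 ± 51.7, and was 6.45-fold above the next, its paralog Scd1 at 62.6 ± 11.9. Hmgcs1, which makes HMG-CoA at the start of the mevalonate pathway, stood at 58.4 ± 15.8 and Cyp46a1, the neuronal cholesterol 24-hydroxylase, at 55.8 ± 8.35. Scd1, Hmgcs1 and Cyp46a1 did not differ from one another beyond the SDs, whereas Cyp46a1 stood clear of Fasn, the fatty acid synthase, at 34.9 ± 3.63. Srebf2, the SREBP gene for sterol synthesis, followed at 32.05 ± 3.27, then Insig1 at 24.6 ± 3.66 and Fdft1, squalene synthase, at 18.2 ± 2.17. From Fdft1 down to Tm7sf2, a sterol reductase gene at 4.11 ± 0.394, no neighbours differed beyond their SDs. Ch25h at 0.559 ± 0.785 and Fdps, farnesyl diphosphate synthase, at 0.305 ± 0.0844 were at the bottom. The low Fdps value has a limit in the annotation: 26.7% of its exon bases are shared with Gm43738, a gene model on the same strand, and the sources used here do not give how reads in shared bases or with several matches were counted. For the same reason reads cannot be fully assigned where Tm7sf2 shares exon bases with Vps51 on the same strand, or where Cyp51, Fdft1 and Srebf1 overlap Akap9, Ctsb and Rai1 on the opposite strand.

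**Figure D1:**
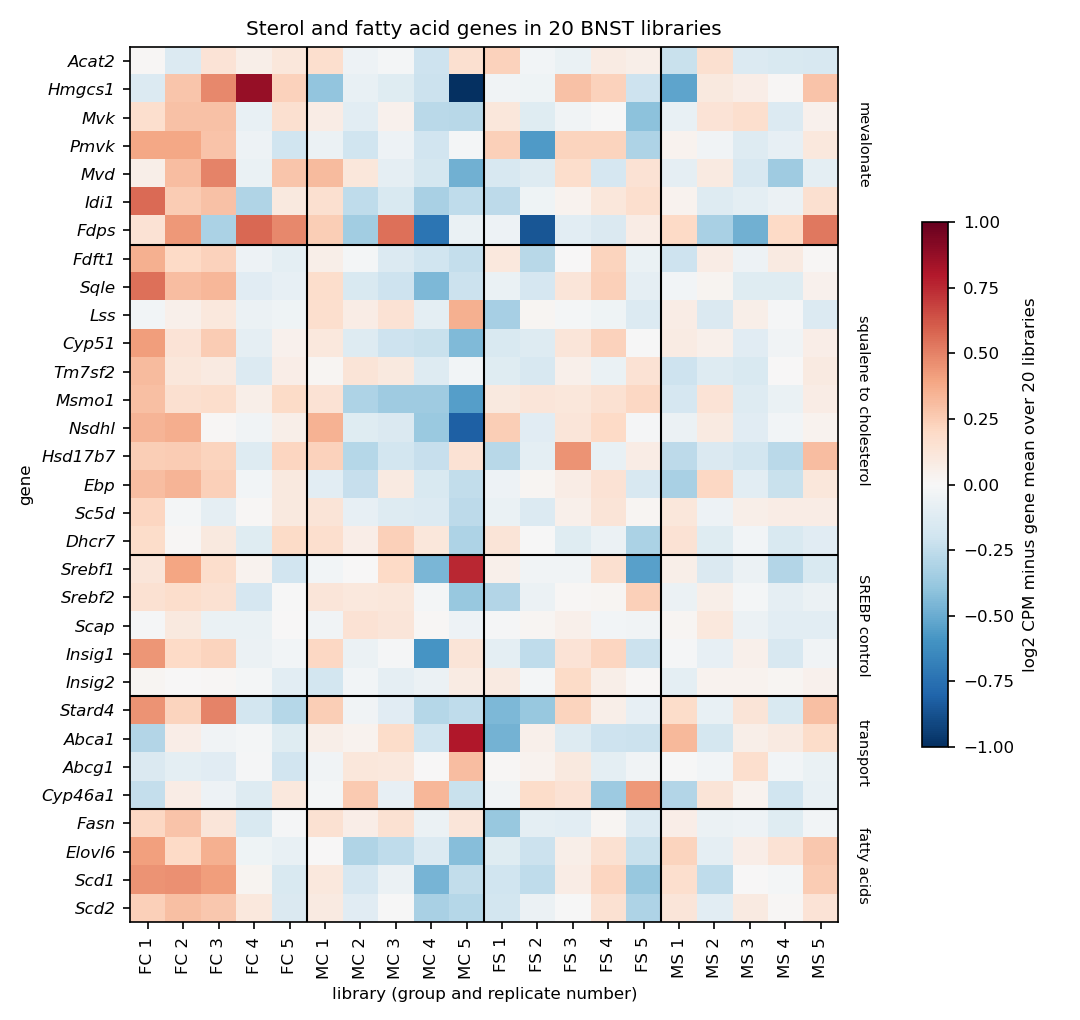
Log2 CPM of 31 genes (rows, grouped by role; transport includes sterol removal) in each of 20 libraries (columns, by group and replicate number), minus the gene's mean over the libraries; red is above and blue below the mean, and the colour scale ends at 1 in either direction. Ch25h is left out because its counts reach 0. Control females 1 to 3 are above the mean for most synthesis genes, and control male 5 departs from its group for Hmgcs1, Srebf1 and Abca1.

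Ch25h separated the sexes in both conditions, and it is the only member whose libraries did not overlap in any of the 4 comparisons of groups. Between the sexes, libraries did not overlap for 3.86% of all genes in controls and 0.773% in susceptible mice. Control females had 2, 3, 1, 0 and 2 counts of Ch25h, and susceptible females had 1, 2, 2, 2 and 1. Control males had 74, 27, 21, 29 and 4 counts, and susceptible males had 6, 22, 7, 16 and 27. Every male library was above every female library, although control male 5 was near the females and control male 1 stood far above the other males. In CPM the control males were at 4.51, 1.64, 1.41, 1.66 and 0.248, and the susceptible males at 0.405, 1.45, 0.442, 0.988 and 1.78; no female library exceeded 0.173 CPM. The gene lies on chromosome 19, at 34473778 to 34475164 of GRCm38 on the minus strand, and its exon of 1387 bases shares 11.5% of its length with Gm26902, a noncoding transcript of the opposite strand that the tables do not count.

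The summed counts of Ch25h were 155 in control males and 8 in control females, a depth-scaled ratio of 19.4 (95% exact interval 9.61 to 45.8). In susceptible mice they were 78 and 8, a ratio of 10.2 (4.94 to 24.5). These intervals cover counting error only. The exact 2-sided permutation test of the mean CPM gave p = 0.00794 in each condition (252 permutations). That is the smallest that 5 against 5 libraries allow, and the only value possible where the groups do not overlap. In the fit over all genes the log2 fold change, male over female, was 4.18 ± 0.68 (SE) in controls, with an edgeR adjusted p of 0.0109. In susceptible mice it was 3.24 ± 0.71, with an adjusted p of 0.260, which does not pass 0.05. The difference between these 2 sex effects did not pass (female minus male stress effect 0.94 ± 1.16, adjusted p = 0.777). Averaged over both conditions, a contrast added after seeing the data, the sex effect was 3.71 ± 0.49 with an adjusted p of 5.83e-04. Ch25h passed the count filter through 7 male libraries and no female one, so a test of sex for it was bound to meet a difference. The p-values of Ch25h between the sexes, here and below, are therefore given as description, and nothing is read from them.

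Leaving out control female 3 gave an adjusted p of 0.0530 for Ch25h in controls with a log2 fold change of 4.09, and without the libraries high in Ttr or in Pmch the values were 4.72 (adjusted p = 0.0601) and 4.75 (0.787). The markers of microglia, the resident macrophages of brain, overlapped between the groups: 12 genes summed to 309 to 474 CPM in control females, 278 to 453 in control males, 361 to 475 in susceptible females and 333 to 485 in susceptible males. Markers of endothelial cells and pericytes were higher in control males in 14 of 15 estimates, with 3 passing the test, and summed to 308 to 356 CPM in control females and 301 to 538 in control males. With the vascular score in the model, added after seeing the data, the Ch25h log2 fold change in controls was 4.47 with an adjusted p of 0.0942. With the microglial score, also added after seeing the data, it was 4.21 with an adjusted p of 0.0114.

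**Figure D2:**
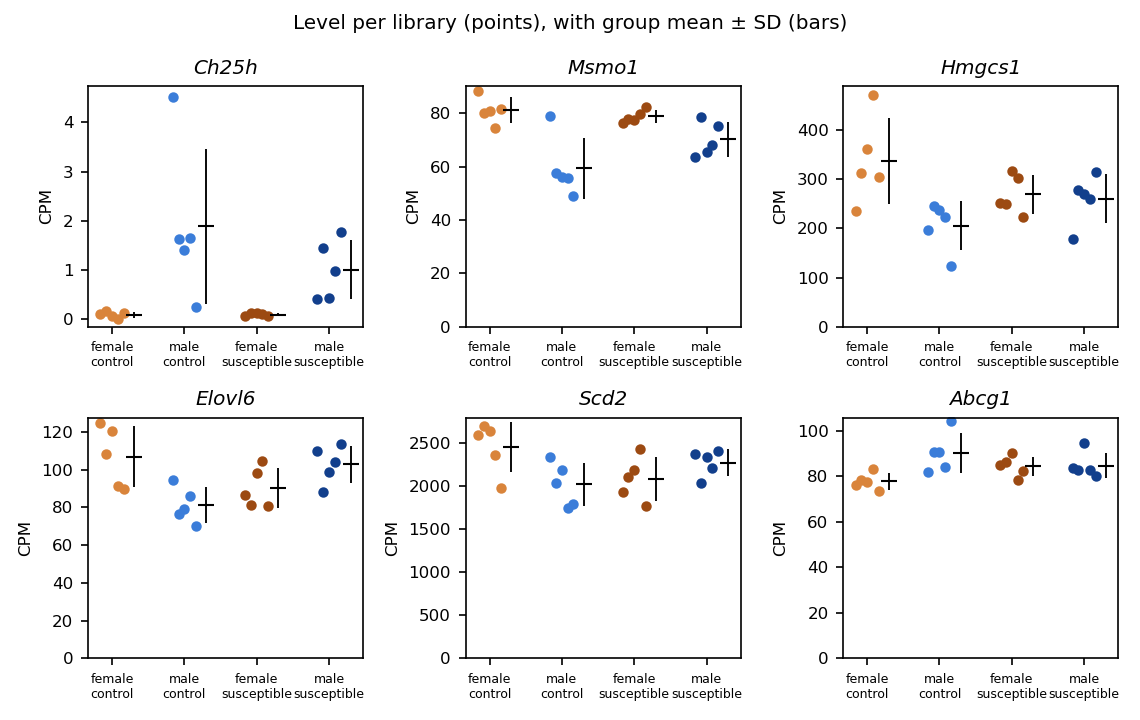
CPM of 6 genes in each library (points, in replicate order within a group) with the group mean and SD (dash and bar, n = 5) beside them; all axes are linear. Ch25h is near 0 in all 10 female libraries, Msmo1 is lower in 4 of 5 control males than in every other group, and the groups of Hmgcs1, Elovl6, Scd2 and Abcg1 overlap.

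In unstressed mice most synthesis genes had lower estimates in males than in females. Of the 32 members, 25 had a negative log2 fold change, with a median of -0.23 against 0.00 over all 14884 genes tested. At an edgeR adjusted p under 0.05, which 0.511% of all genes passed, Msmo1 fell and Ch25h rose, though nothing is read from the Ch25h call, since that gene entered the test through male libraries. At an unadjusted p under 0.05 there were 14 members, Ch25h among them and 12 lower in males, against 19.2% of all genes. By role, the estimates were lower for 7 of 7 mevalonate genes (median -0.28), 10 of 11 genes of the later steps (-0.24), 4 of 4 fatty acid genes (-0.34) and 3 of 5 control genes (-0.03), but for only 1 of 5 transport and removal genes (median 0.22). Apart from Ch25h, no member had control libraries that separated by sex without overlap, which 3.86% of all genes had.

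Msmo1 encodes a methylsterol monooxygenase of the demethylation steps that follow lanosterol, and its promoter is shown above. Msmo1 stood at 88.2, 80.1, 81.0, 74.5 and 81.5 CPM in control females and at 79.0, 57.7, 55.9, 55.8 and 48.9 in control males. Control male 1 lay within the female range, and the other 4 males lay below every female. The log2 fold change was -0.44 ± 0.09 with an adjusted p of 0.0459. This call is near the threshold: it was lost without any 1 of 13 libraries, with log2 fold changes of -0.47 to -0.38 and adjusted p from 0.0504 (without susceptible female 4) to 0.136 (without control male 2). The other 11 are control females 1 (0.116), 2 (0.0949), 3 (0.119) and 4 (0.0721), control males 3 (0.0895), 4 (0.0669) and 5 (0.0877), susceptible female 3 (0.0545) and susceptible males 1 (0.0578), 3 (0.0567) and 4 (0.0588). DESeq2 (-0.45, adjusted p = 0.00259) and voom (-0.45, adjusted p = 0.00205) also called it. Of 17 alternatives other than leaving out single libraries, 9 lost the call, with adjusted p up to 0.813 and log2 fold changes of -0.45 to -0.35 over all 17.

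Hmgcs1 lies at the entry of the pathway and has the sterol core in its promoter. Hmgcs1 stood at 235, 313, 361, 472 and 304 CPM in control females and at 197, 246, 238, 223 and 123.5 in control males. Control female 4 was the highest of the 20 libraries and control male 5 the lowest, while control female 1 lay within the male range. The log2 fold change was -0.71 ± 0.19, the largest of the synthesis genes, with an adjusted p of 0.0853. DESeq2, which called 3.25% of the genes it gave an adjusted p, called Hmgcs1 (-0.72, adjusted p = 0.0141), as did voom (-0.59, adjusted p = 0.0159). Elovl6, the elongase of saturated fatty acids, had a log2 fold change of -0.39 ± 0.11 with the same adjusted p, and for Scd1 it was -0.41 ± 0.14 (adjusted p = 0.151). Among enzymes of the middle and late steps, Sqle, the squalene epoxidase, had an estimate of -0.37 ± 0.12, Idi1, the isopentenyl diphosphate isomerase, -0.36 ± 0.13, Cyp51 -0.33 ± 0.10, Nsdhl -0.33 ± 0.15 and Ebp, a sterol isomerase, -0.32 ± 0.11. Dhcr7, the reductase of the last step (-0.01 ± 0.10), Acat2 (-0.02 ± 0.09) and Fasn (-0.01 ± 0.08) were near 0, and Lss had a higher estimate in males (0.13 ± 0.08).

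Abcg1, a sterol exporter switched on by liver X receptors, went the other way. Abcg1 stood at 75.9, 78.5, 77.6, 83.3 and 73.5 CPM in control females and at 81.8, 90.7, 90.5, 84.0 and 104 in control males. The groups overlapped only in that control female 4 was above control male 1. The log2 fold change was 0.22 ± 0.07 with an adjusted p of 0.118. Of 17 alternatives other than leaving out single libraries, 1 called Abcg1, and leaving out any single library did not. Its partner Abca1 had an estimate of 0.30 ± 0.15 (0.273), and 137 CPM in control male 5 was the highest of the 20 libraries. Srebf1, also a liver X receptor target, had an estimate of 0.03 ± 0.17, and it too was highest in control male 5, at 151 CPM.

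Limma voom with quality weights called 14 members in this comparison, but it called 22.1% of all genes; with offsets for GC content and exon length it called 12 members and 21.7% of all genes. In both, Ch25h and Msmo1 were joined by Hmgcs1, Mvk, Pmvk, Fdft1, Sqle, Cyp51, Ebp, Elovl6, Scd1 and Scd2, all lower in males. Markers of myelinating oligodendrocytes moved with these genes: 26 of 26 had lower estimates in control males (median -0.62, 2 passing), and their summed CPM was 7490.4 to 13558 in control females and 5606 to 8567 in control males, with no marker at 0. With the mean log2 CPM of these 26 markers (the oligodendrocyte score) in the model, the members' median log2 fold change was -0.03 in place of -0.23. With the astrocyte score, from 20 markers, it was -0.08. Markers of several neighbouring regions differed by more than myelin in the same comparison, none passing. Lower in control males by estimate were 11 of 12 thalamic (median -1.43), 9 of 10 choroid plexus (-1.03) and 4 of 5 lateral hypothalamic markers (-1.94). Striatal markers were higher in 14 of 14 (0.98). Cortical excitatory markers differed by less than myelin (-0.05, 6 of 10 lower). With the region score (striatal minus thalamic markers) in the model the members' median was -0.045; the part of these tissues in the result was not tested further. For Msmo1 the log2 fold change with the oligodendrocyte score was -0.35 (adjusted p = 0.497). In bulk tissue, fewer cells of a type and less RNA per cell cannot be told apart.

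In susceptible mice the members' median was -0.02 between the sexes, the same as over all genes, and 0 of 32 passed with edgeR, where 0.047% of genes did. At an unadjusted p under 0.05 there was 1 member, Ch25h, against 6.28% of all genes. DESeq2, which called 0.101% of all genes, called Ch25h (3.34, adjusted p = 0.0237) and no other member, and voom called 0. The limit on Ch25h holds for these calls too. Libraries that did not overlap were found for 1 member, again Ch25h, and for 0.773% of all genes. Abca1, the exporter that loads lipoproteins with cholesterol, stood at 56.9, 81.5, 72.2, 68.4 and 68.0 CPM in susceptible females and at 99.0, 69.7, 82.0, 83.8 and 89.5 in susceptible males. Susceptible male 2 lay within the female range and the other 4 males above it, with a log2 fold change of 0.29 ± 0.15 (adjusted p = 0.774). Acat2, the cytosolic thiolase before Hmgcs1, stood at 45.2, 37.8, 36.9, 40.9 and 40.1 CPM in susceptible females and at 33.0, 43.2, 35.1, 34.7 and 34.5 in susceptible males. Susceptible male 2 was among the females and the other 4 below them, with a log2 fold change of -0.15 ± 0.09 (adjusted p = 0.809). For Msmo1 the estimate was -0.16 ± 0.09, with the same adjusted p. In the mean sex effect over both conditions, a contrast added after seeing the data, 0.511% of genes passed with edgeR. Msmo1 was lower in males by that test (-0.30 ± 0.07, adjusted p = 0.0434). Ch25h was called higher in males, and the limit on Ch25h holds for that call too. Without the libraries high in Pmch both calls were lost (adjusted p = 0.287 for Msmo1 and 0.107 for Ch25h). That of Msmo1 was lost without any 1 of 16 libraries, all but control female 4, control male 1 and susceptible males 2 and 5 (adjusted p from 0.0506 to 0.1002), and under 8 further alternatives, among them the replicate block (0.0660) and the oligodendrocyte score in the model (0.182).

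**Figure D3:**
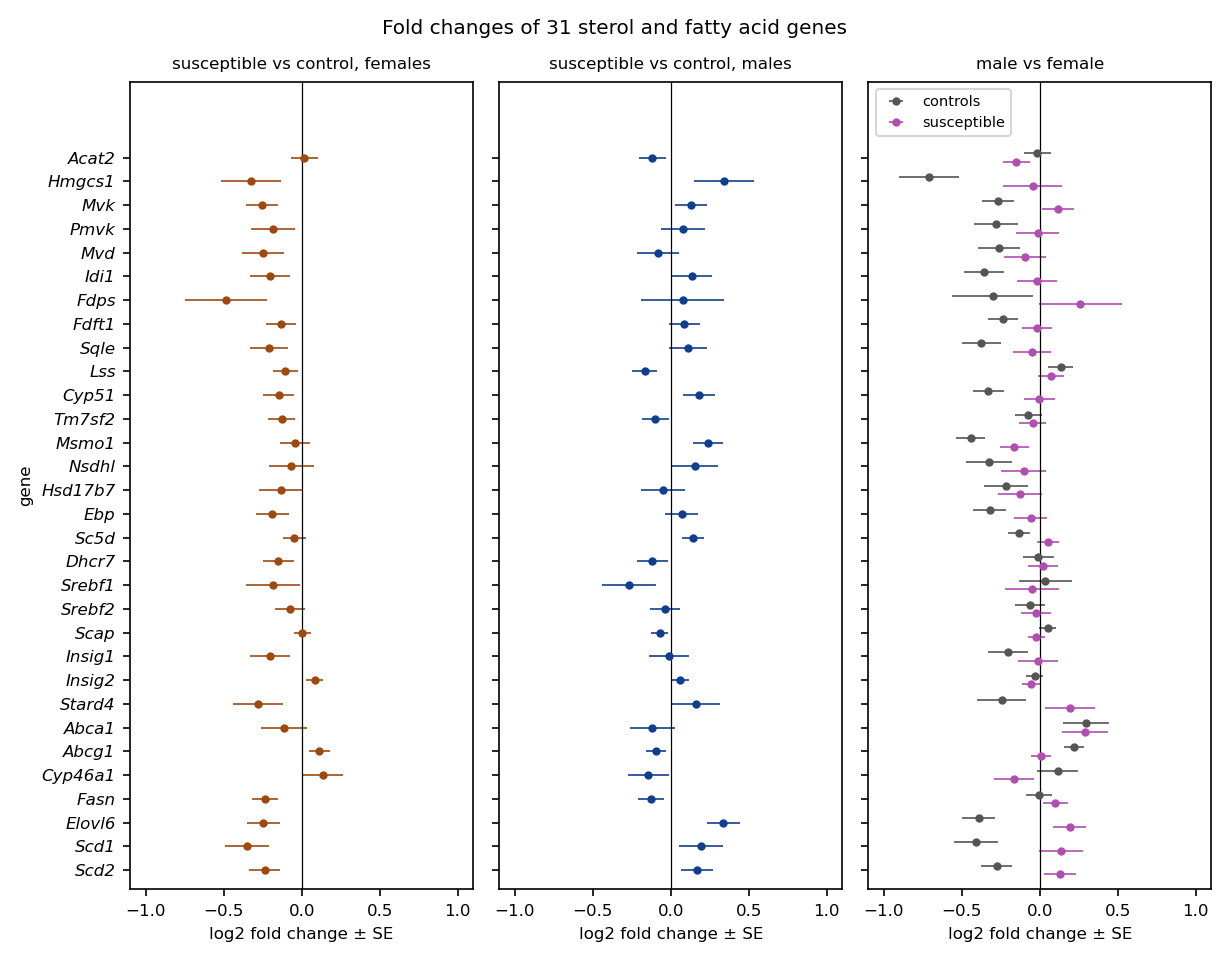
Log2 fold change ± SE (horizontal axis) of 31 genes (rows, Ch25h left out) for susceptible against control females, susceptible against control males, and males against females in controls (grey) and susceptible mice (purple). Most synthesis genes are left of 0 in females under stress and in the sex comparison of controls, and near 0 in the sex comparison of susceptible mice.

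In females the estimates under stress were mostly downward, and none passed the test. Of 32 members, 26 had lower estimates in susceptible than in control females, with a median of -0.15 against 0.01 over all genes, of which 48.4% were lower. With edgeR 0 of 32 members and 0% of all genes passed, the smallest adjusted p being 0.774, and DESeq2 and voom called 0 as well. At an unadjusted p under 0.05 there were 5 members, all lower, against 5.85% of all genes: Fasn, Mvk, Scd1, Scd2 and Elovl6. By role, 11 of 11 genes of the later sterol steps had lower estimates (median -0.13), as did 6 of 7 mevalonate genes (-0.25) and 4 of 4 fatty acid genes (-0.24). The estimates ran from -0.49 ± 0.26 for Fdps, a gene at 1.28 ± 0.355 CPM over all libraries, to 0.14 ± 0.13 for Cyp46a1. No member had non-overlapping libraries, against 0.464% of all genes. The control females are shared with the sex comparison of controls, so the 2 are not independent.

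Fasn, which makes palmitate, stood at 439.8, 463, 413, 343 and 377 CPM in control females and at 292, 355, 354, 386 and 346 in susceptible females. Control females 1 to 3 were above every susceptible female, and control females 4 and 5 were among them. The log2 fold change was -0.23 ± 0.08 (adjusted p = 0.774). Scd1, a desaturase that makes oleate, stood at 411, 412, 401, 307 and 270.1 CPM in control females and at 262, 253, 317, 349.7 and 232 in susceptible females, again with control females 1 to 3 above all others. Its log2 fold change was -0.35 ± 0.14. These 3 control females are those with over 1 CPM of Pmch, and their part in the difference cannot be told apart from the group: without the 5 libraries of that kind the members' median was -0.02.

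A few regulators and removal genes had higher estimates in susceptible females. Insig2, a membrane anchor for SCAP, stood at 58.3, 57.8, 58.3, 57.0 and 53.5 CPM in control females and at 61.3, 57.0, 65.9, 60.2 and 58.3 in susceptible females. The groups overlapped, and the log2 fold change was 0.08 ± 0.06. For Abcg1, at 84.8, 86.1, 89.98, 78.4 and 82.2 CPM in susceptible females, it was 0.11 ± 0.07. For Srebf1, Srebf2 and Scap the estimates were -0.18 ± 0.17, -0.07 ± 0.10 and 0.00 ± 0.05.

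In males stress went with no member called by edgeR and no common direction. Between susceptible and control males 17 members had higher and 15 lower estimates, with a median of 0.07 against -0.01 over all genes. By role the medians were 0.18 for fatty acid genes (3 of 4 higher), 0.09 for the later sterol steps (7 of 11), 0.08 for the mevalonate genes (5 of 7), -0.04 for the control genes (1 of 5) and -0.12 for transport and removal (1 of 5). Hmgcs1 (0.34 ± 0.19) had the highest estimate and, after Ch25h, Srebf1 (-0.27 ± 0.17) the lowest. With edgeR 0 of 32 members and 0% of all genes passed. Elovl6 and Msmo1, both higher, had an unadjusted p under 0.05, as 9.67% of all genes did. DESeq2 called 0 members and 24 genes in all, and voom called 1 member, Elovl6 (0.35, adjusted p = 0.0277), where 4.59% of all genes passed that test. No member's libraries separated without overlap, against 2.45% of all genes.

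Elovl6 stood at 94.8, 76.6, 79.1, 85.8 and 70.2 CPM in control males and at 109.9, 88.4, 98.8, 104 and 114 in susceptible males. Susceptible male 2 lay below control male 1, and the other 4 susceptible males lay above all controls. The log2 fold change was 0.34 ± 0.11 (adjusted p = 0.405). It was 0.18 with the oligodendrocyte score in the model. Msmo1, at 63.7, 78.7, 65.3, 68.3 and 75.2 CPM in susceptible males, had a log2 fold change of 0.24 ± 0.09 (adjusted p = 0.463), and control male 1 was above all of them while the other 4 controls were below. Lss, the cyclase that forms lanosterol, stood at 53.0, 49.7, 52.1, 44.3 and 60.6 CPM in control males and at 49.9, 42.7, 49.3, 46.8 and 43.1 in susceptible males. The groups overlapped, with the highest value in control male 5, and the log2 fold change was -0.17 ± 0.08 (adjusted p = 0.526). For Ch25h the estimate was -0.90 ± 0.51 (adjusted p = 0.592), with control male 1 above all susceptible males and control male 5 below them. Without control male 1 it was -0.29, and without susceptible male 5 it was -1.20.

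Averaged over both sexes, 0 of 32 members and 0% of all genes passed with edgeR, the members' median was -0.05, and Fasn (-0.18 ± 0.06, adjusted p = 0.576) and Lss (-0.14 ± 0.06, adjusted p = 0.604) had an unadjusted p under 0.05, against 7.71% of all genes. DESeq2 and voom called 0 members here.

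The stress effects of the sexes ran in opposite directions for many synthesis genes, but no difference passed the test. For 16 of 32 members (50%) the estimate was lower in females and higher in males under stress, against 25.6% of all genes; these 2 comparisons share no library. Among them were Hmgcs1 (-0.33 and 0.34), Cyp51, the lanosterol demethylase (-0.15 and 0.18), Stard4, a carrier of cholesterol between membranes (-0.28 and 0.16), Elovl6, Scd1 and Scd2. Tested as the female minus the male effect, 0 of 32 members and 0% of all genes passed with edgeR (smallest adjusted p = 0.587), and DESeq2 and voom called 0. At an unadjusted p under 0.05 there were 8 members against 8.26% of all genes, 7 with the lower effect in females and Abcg1 with the higher.

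Elovl6 had the smallest unadjusted p of these, with a difference of -0.58 ± 0.15 (adjusted p = 0.587). Elovl6 stood at 125, 108, 121, 91.5 and 89.6 CPM in control females and at 86.7, 81.4, 98.1, 105 and 80.7 in susceptible females, where the groups overlapped. For Scd2 the difference was -0.41 ± 0.14. Scd2 stood at 2586, 2691, 2642, 2356 and 1981 CPM in control females and at 1932, 2103, 2182, 2430.1 and 1765 in susceptible females. It stood at 2330.2, 2028, 2187, 1748 and 1795 CPM in control males and at 2374, 2038, 2331, 2206 and 2408 in susceptible males. Control females 1 to 3 were the 3 highest of all libraries, and the males overlapped.

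Abcg1 and Cyp46a1, both of sterol removal, had estimates on the other side. For Abcg1, at 83.6, 82.5, 94.4, 82.6 and 79.99 CPM in susceptible males, the difference was 0.21 ± 0.09, and for Cyp46a1 it was 0.28 ± 0.18. Cyp46a1 stood at 154, 191, 175, 165 and 196 CPM in control females and at 177, 206, 200.4, 141 and 245 in susceptible females. It stood at 179, 217, 171, 229 and 156 CPM in control males and at 148, 199, 186, 158 and 172 in susceptible males. All 4 groups overlapped. Myelin markers again moved with the synthesis genes, with 26 of 26 lower in susceptible than control females and 26 of 26 higher in susceptible than control males by estimate, none passing. Markers of several other regions had larger differences between the sexes' stress effects, also with none passing. By estimate 14 of 14 striatal markers (median 1.26) and 10 of 10 cortical excitatory markers (1.32) were higher. Lower were 11 of 12 thalamic markers (-1.13) and 4 of 5 lateral hypothalamic markers (-2.12), beside -0.62 for myelin. For choroid plexus the difference was smaller than for myelin (-0.46, 9 of 10 lower). With the oligodendrocyte score in the model the members' median difference was 0.02 in place of -0.19, and that of Scd2 was -0.09.

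Within groups, the desaturases varied with the glial markers from library to library, as markers of other regions did. The oligodendrocyte score averaged 7.14 ± 0.35 in control females, 6.46 ± 0.35 in control males, 6.84 ± 0.26 in susceptible females and 6.82 ± 0.19 in susceptible males (SD, n = 5). The slope of each member on this score, in a model that also held the group means, was positive for 27 of 32 members, with a median of 0.25 log2 CPM per unit of score against -0.01 over all genes. The slope passed for 8 of 32 members, all positive, where 16.1% of all genes passed: Scd1 (0.66 ± 0.12, adjusted p = 0.00176), Stard4 (0.63 ± 0.16), Nsdhl (0.51 ± 0.16), Pmvk (0.50 ± 0.15), Scd2 (0.47 ± 0.08, adjusted p = 0.00188), Elovl6 (0.43 ± 0.11), Sqle (0.42 ± 0.13) and Mvk (0.35 ± 0.11). Nsdhl, on the X chromosome, encodes a sterol dehydrogenase of the demethylation steps; Pmvk and Mvk encode kinases of mevalonate, and Sqle squalene epoxidase.

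On the astrocyte score 9 of 32 members passed, a share close to the 28.3% of all genes that did. Scd1 (1.35 ± 0.25), Pmvk (1.13 ± 0.31), Scd2 (0.95 ± 0.19), Sqle (0.93 ± 0.27), Insig1 (0.86 ± 0.30), Elovl6 (0.80 ± 0.24), Mvk (0.71 ± 0.25) and Fdft1 (0.68 ± 0.22) had positive slopes. Cyp46a1 had a negative slope of -0.89 ± 0.30 (adjusted p = 0.0313). The astrocyte markers themselves had a median slope of 0.72 on this score, with 11 of 20 passing upward and 1 downward. Whether this score follows astrocytes or region was not tested. On the oligodendrocyte score the slopes of thalamic markers had a median of 3.47 (9 of 12 passing) and those of cortical excitatory markers -2.80 (10 of 10 passing), beside 0.94 for the myelin markers themselves. Few or none passed on the oligodendrocyte score for striatal (median -1.14, 0 of 14), choroid plexus (2.60, 1 of 10) and lateral hypothalamic markers (6.82, 1 of 5). More passed on the astrocyte score. Downward there were 12 of 14 striatal (median -3.77) and 10 of 10 cortical excitatory markers (-6.75). Upward were 9 of 12 thalamic (7.17), 4 of 5 lateral hypothalamic (19.2) and 1 of 10 choroid plexus markers (6.37). Scd1 and Scd2 passed on either score without any 1 of the 20 libraries. With a score of striatal against thalamic neuron markers as covariate, 0 members passed on the oligodendrocyte score and 1 on the astrocyte score, and with both glial scores in one model 0 passed on either. With the replicate block 2 members passed on the oligodendrocyte score and 3 on the astrocyte score. The share of all genes passing is not given for these settings or for the single-library settings that follow. A fall in the count is therefore not read as particular to the members. Without control female 5, the count fell to 3 on each score; it was also under 6 on the oligodendrocyte score without control female 2 (4), 4 (4), control male 1 (5), 4 (5), susceptible female 2 (5), 3 (5), 5 (4) or susceptible male 5 (5), and on the astrocyte score without susceptible female 4 (5).

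**Figure D4:**
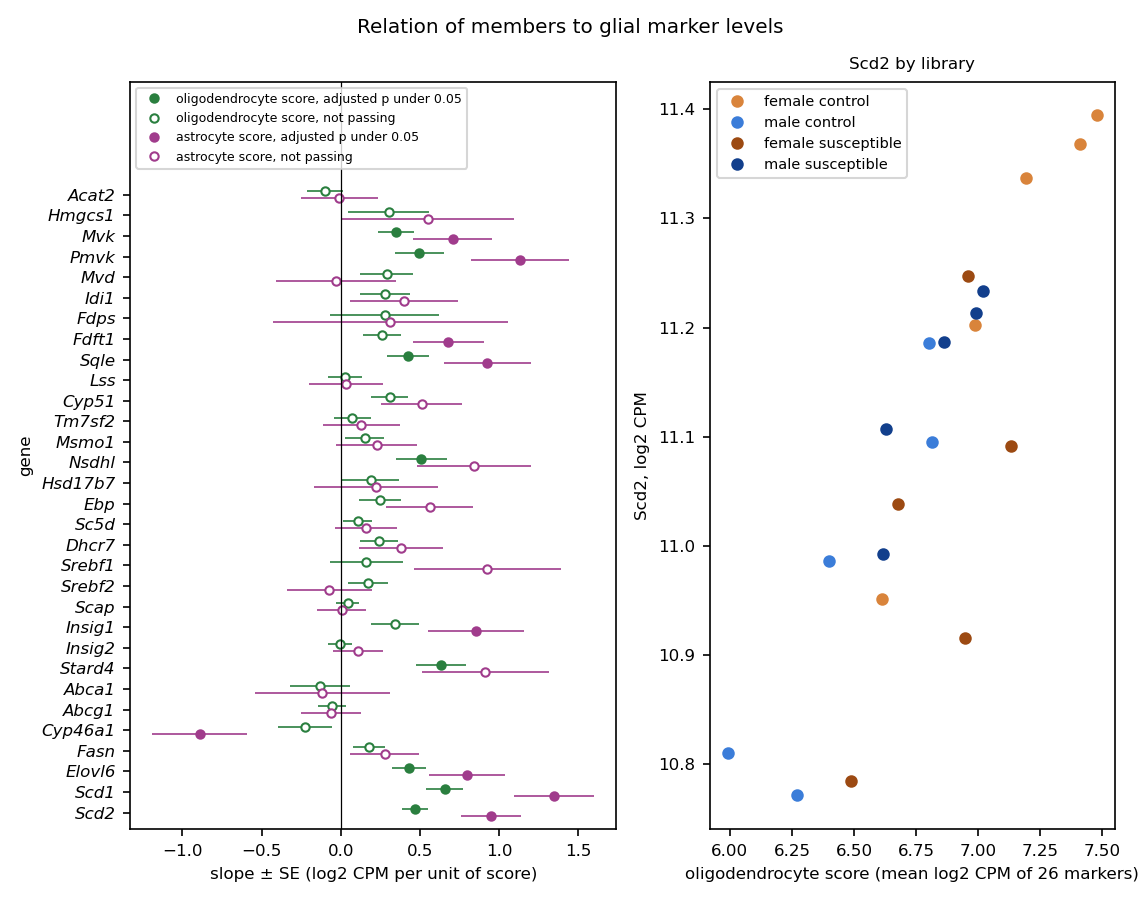
Left, slope ± SE (log2 CPM per unit of score) of 31 genes on the oligodendrocyte score (green) and on the astrocyte score (purple), with filled points passing an adjusted p of 0.05; Ch25h is left out, and its slopes, 1.79 ± 0.83 and 4.16 ± 2.04, did not pass. Right, log2 CPM of Scd2 against the oligodendrocyte score in each library by group; Scd2 is higher in libraries with a higher score.

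Other genes of the same pathways were read from 2 further lists, 29 of sterol handling (28 tested) and 30 of fatty acid metabolism. In control males against control females edgeR called 1 of the 58 tested, where 0.511% of all genes passed. DESeq2 called 2, where it called 3.25% of the genes it gave an adjusted p, and voom called 19, where it called 22.1% of all genes. The edgeR call was Mbtps1, the Golgi protease that cuts SREBP, which was higher in males (0.36 ± 0.07, adjusted p = 0.0429). The call of Mbtps1 was lost without any 1 of 11 libraries: control females 1 to 4, control males 2, 3 and 5, susceptible female 3 and susceptible males 1, 3 and 4 (adjusted p from 0.0509 to 0.138). Of 17 further alternatives 7 kept it, and it was lost, among others, with the oligodendrocyte score (0.497), without the libraries high in Pmch (0.803) and with GC and length offsets (0.0563). Under stress 0 passed with edgeR in either sex (smallest adjusted p = 0.774 in females and adjusted p = 0.405 in males). An unadjusted p under 0.05 was found for 5 of the 58 genes in females, against 5.85% of all genes, and for 6 in males, against 9.67%. DESeq2 called 0 in either sex, and voom called 0 in females and 3 in males. In males voom called 4.59% of all genes. In females Acaca, acetyl-CoA carboxylase (-0.26 ± 0.11), was among the lower estimates with the smallest p values, and among higher estimates these were Erlin1 (0.34 ± 0.18) and Cpt1c (0.12 ± 0.07). In males the smallest p values were those of Ggps1, which makes geranylgeranyl diphosphate (0.26 ± 0.08), and Hsd17b12, of fatty acid elongation (0.35 ± 0.11), and, among lower ones, Mbtps1 (-0.17 ± 0.07) and Nr1h3, a liver X receptor (-0.40 ± 0.18). For the difference of the stress effects they included those of Hsd17b12 (-0.43 ± 0.15), Cpt1c (0.27 ± 0.10) and Mbtps1 (0.27 ± 0.11), and in susceptible males against females those of Lrp1 (0.38 ± 0.11), Lpin1 (0.30 ± 0.10), Nr1h3 (-0.42 ± 0.18) and Hacd1 (-0.31 ± 0.15). On the oligodendrocyte score 6 sterol genes passed upward and 1 downward, and 8 fatty acid genes upward, 15 of 58 where 16.1% of all genes passed. On the astrocyte score 5 sterol genes passed upward and 1 downward, and 11 fatty acid genes upward and 1 downward, where 28.3% of all genes passed. Cyp27a1, the sterol 27-hydroxylase (1.23 ± 0.20), Npc2, a lysosomal cholesterol carrier (0.53 ± 0.08), Fads6 (0.91 ± 0.14) and Fads2, a desaturase of polyunsaturated fatty acids (0.50 ± 0.09), passed on the oligodendrocyte score, and Erlin1 had the negative slope there (-0.64 ± 0.19).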

How the data were processed

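Read counts per gene were deposited by the authors as 1 table for each of 20 BNST libraries, 5 per group, in whole numbers without normalization. HISAT2, featureCounts and mm10 are named in the submitters' processing notes. For versions, gene annotation, strandedness and multiply matched reads, the entry is: not given in the sources used here. Groups and replicate numbers came from the sample titles. Identifiers were matched to GENCODE M21 on GRCm38 for 19206 of 19214 genes, which gave symbols, positions and exon lengths, and promoter windows are RefSeq's on GRCm38.p6. The smallest chi-square per degree of freedom among the 40 pairs of libraries within a group was 5.98, so no library was treated as a repeat.

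The members and all gene lists were chosen with earlier results of these data known. Counts were scaled by TMM, filtered by filterByExpr (14884 genes, including all 32 members) and fitted with edgeR 4.0.16 (R 4.3.3; robust quasi-likelihood), using every library and a mean for each group. Benjamini-Hochberg adjustment ran over all genes in each of 7 contrasts, and 0.05 was the threshold. The standard error was obtained by dividing the size of the log2 fold change by the root of F. CPM are TMM-scaled, and scores are mean log2 CPM (prior count 2) of a marker list. Slopes on scores came from the same fit with the score added. Per-library values are given for members that were called, did not overlap between groups, or had one of the 2 smallest p in each direction of a comparison; for the 2 further lists, called genes or, with none, those with the 2 smallest p in each direction are named, and on the slopes a selection made after their values were seen. A gene that this rule names is not reported here. Code was tested on simulated data with 200 changed genes.

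Alternatives were DESeq2 size factors, the DESeq2 1.42.0 Wald test, limma 3.58.1 voom with quality weights, no count filter, at least 1 CPM in 5 libraries, the replicate block, the 2 groups alone, 1 surrogate variable (sva 3.50.0), marker scores as covariates, leaving out libraries over 100 CPM of Ttr or 1 CPM of Pmch, offsets for GC content and exon length (mgcv 1.9.3), and leaving out each library. The mean sex effect and the vascular and microglial covariates were added after seeing the data. Depth limits low genes such as Ch25h and Fdps, and the reads carry no molecular identifiers.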

Additional observations from a re-analysis of the deposited data

Results flagged for a closer look

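In 128 groups of 5 libraries (32 genes in 4 groups), 6 held a library whose gap to its nearest neighbour was large against the range of the group; chance alone gives about 1 in 20, or 6.4 groups. Acat2 was high in susceptible male 2, at 43.2 CPM against 35.1 in the next library. Hsd17b7, a ketosteroid reductase gene of the demethylation steps, was low in control female 4 (21.5 CPM, next 27.3) and high in susceptible male 5 (29.2 CPM, next 21.3). Insig2 was low in control female 5 (53.5 CPM, next 57.0) and in susceptible male 1 (53.9 CPM, next 58.5). Abcg1 was high in susceptible male 3, at 94.4 CPM against 83.6 in the next.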

How the results depend on the processing

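No gene described by library changed the sign of its estimate under the alternatives run; medians over the members did so where given. In control males against control females, members called were 2 as reported, 3 with DESeq2, 14 with voom, and 12 with voom and GC and length offsets. Counts were 4 with the microglial score, and 1 without the count filter, with 1 surrogate variable, or with the oligodendrocyte, astrocyte or region score. They were 0 with the vascular score, without the libraries high in Ttr, without those high in Pmch, and with the 2 groups alone, where Ch25h did not pass the filter. Leaving out single libraries gave 0 to 4, and 4 arose without control male 1, 0 without control female 3 and 1 without the other libraries named for Msmo1 in the text. DESeq2 gave Ch25h no adjusted p in controls. The share of all genes called is given in the text for edgeR as reported, DESeq2 and voom. For the other settings it is not given, so a changed count is not read as particular to the members. Voom called 1 member in males under stress. In susceptible mice DESeq2 called 1 between the sexes, and leaving out single libraries gave 0 to 1, the 1 being Ch25h without control male 5 (3.24, adjusted p = 0.0428).

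The median of the members between control sexes was -0.060 with the surrogate variable, -0.030, -0.076 and -0.045 with the oligodendrocyte, astrocyte and region scores, and -0.051 without the libraries high in Pmch. For the difference of stress effects the same 5 settings gave -0.050, 0.018, -0.037, -0.052 and -0.026. The median in females was -0.025 without the libraries high in Pmch, and in males -0.063 with the oligodendrocyte score. The cause was not tested. Counts on the oligodendrocyte score were 8 as reported, 15 without group means, 2 without the libraries high in Pmch, 0 with the region score, 0 with both glial scores, and 3 to 8 without single libraries. On the astrocyte score they were 9, then 1 without the libraries high in Pmch, 1 with the region score, 0 with both scores, 3 without the 2 libraries of most extreme score, and 3 to 10 without single libraries. Apart from the counts as reported, the share of all genes is not given beside these, so a change is not read as particular to the members.

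Of the 5 pairs of libraries with the same number, 2, 3, 2 and 1 had correlated deviations over 0.1 in the 4 comparisons of groups, and 1 of 5 correlated best with its own number in each, so the numbers were not taken to pair the libraries. With the replicate block, 2 members were called between control sexes, 2 on the oligodendrocyte score and 3 on the astrocyte score, and in the mean sex effect 1.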
